A study of Arabidopsis thaliana with 8 samples.

Results

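AT1G68660 and Cpn60beta3 (AT5G56500), a pair of genes for plastid protein quality control, were followed in Arabidopsis thaliana under red light. They were chosen by annotation: a probe counted when the array platform's annotation listed exactly 1 gene for it and that gene was one of the 2. This gave 1 probe for each gene, among 692 single-gene probes and 3439 probes in all. Total RNA came from wild-type plants of the Landsberg ecotype, kept for 48 hours in red light of 200 µE or of 20 µE, with 4 single-channel arrays for each light level. All plants had the same genotype and both groups received red light, so no darkness or white light control enters. The sources used here give neither the tissue and age of the plants nor an area or time unit for µE. Whether replicates are separate plants is not stated in the labels, and p-values therefore reflect the spread among these arrays alone, which may be technical.

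Proteins that enter the chloroplast or are made there must be folded, and damaged or surplus ones must be removed. AT1G68660 encodes ClpS1, a small adaptor that selects substrates for the stromal Clp protease and hands them to its ClpC chaperone partner; glutamyl-tRNA reductase, the first committed enzyme of chlorophyll and haem synthesis, is one known substrate. Cpn60beta3 encodes a beta subunit of the plastid chaperonin, a chamber of stacked rings in which alpha and beta subunits fold proteins such as the large subunit of Rubisco. Arabidopsis has several genes for beta subunits, and the probe for Cpn60beta3 could not be shown to exclude transcripts of its close relatives.

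The values are intensities in arbitrary units, and each array's brightest probe lies at 100. How that came about is not stated, so deposited differences may be relative to that probe. On this scale the values above 0 had a higher median at 200 µE. It lay between 0.513 and 0.578 on the 200 µE arrays, against 0.267 to 0.345 on the 20 µE arrays. On both light levels the arrays of replicates 1 and 2 differed as a set from those of replicates 3 and 4. A principal component holding 53.0% of the variance parted these sets, while the next one, at 23.2%, parted 200 µE from 20 µE. The sets were seen in the data and nothing in the labels names them. Members are therefore given as deposited, after quantile normalization (which gives every array the same distribution of values, so that a difference is relative to the other probes), by same replicate number and within each set. In these bulk samples fewer cells of a type and less RNA per cell cannot be told apart.

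AT1G68660, the Clp adaptor gene, had a higher signal at 200 µE on every array. Its deposited intensities were 0.539, 0.597, 0.619 and 0.631 on the 200 µE arrays of replicates 1 to 4, against 0.235, 0.223, 0.275 and 0.273 on the 20 µE arrays. The groups did not overlap, and each replicate number gave nearly the same ratio, 2.29, 2.67, 2.26 and 2.32. Means ± SD of 4 arrays were 0.597 ± 0.041 at 200 µE, against 0.251 ± 0.026 at 20 µE, higher by 1.25 ± 0.14 on the log2 scale (SE; adjusted p = 0.0044 by limma). Among all deposited values, however, 31.4% of the 3119 probes tested were called higher at 200 µE, and in 37.6% the groups did not overlap in that direction. The 650 probes of the same class of brightness, the second dimmest of 4, had a median log2 difference of 0.91, and 74.5% of them had a difference no larger than that of AT1G68660.

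Against the other probes the difference was smaller and did not pass the test. After quantile normalization AT1G68660 stood at 0.447, 0.507, 0.448 and 0.452 on the 200 µE arrays, against 0.385, 0.370, 0.356 and 0.355 on the 20 µE arrays. The groups again did not overlap, as in 5.90% of all probes tested in that direction. The log2 difference was 0.34 ± 0.12 (SE), a 1.26-fold higher level with a 95% interval of 1.04 to 1.53, and the adjusted p was 0.178 by limma (unadjusted p = 0.0234), in a fit that called 4.62% of the probes. An exact two-sided permutation test of the 8 arrays gave p = 0.0286, the smallest that 4 against 4 arrays can give, although it treats arrays of both sets as interchangeable. By same replicate number the log2 differences were 0.21, 0.45, 0.33 and 0.35, and their exact sign-flip p of 0.125 is likewise the smallest possible.

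The call on AT1G68660 moved with the settings of the limma fit, which cannot alter the difference of 0.34. The gene's own standard error was 0.052, and sharing raised it to 0.118. When the 320 probes at 0 on all arrays, which have no spread, were kept in the fit, the shared SD was 0.0937 in place of 0.372, and AT1G68660 passed with an adjusted p of 0.0154 by limma, among 6.83% of probes called. With the replicate number as a block the adjusted p was 0.0538 by limma, among 18.7% of probes called. With the 2 array sets, which were seen in the data, as a block it was 0.021, among 23.1% of probes called. What moved the call in the block fits was not tested. The shared SD was compared only between the fits with and without the probes at 0 on all arrays.

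The brightness rank of AT1G68660 on each array, which no scaling of an array can alter, showed the same order. Quantile normalization sets each value by its rank on the array, so the ranks largely restate the normalized result and are no separate support. Among the 2600 probes above 0 on all arrays AT1G68660 stood at percentiles 47.9, 53.9, 50.1 and 50.5 on the 200 µE arrays, against 41.2, 39.5, 39.2 and 38.6 on the 20 µE arrays. The gene lay near the middle of the array at 200 µE and below it at 20 µE, with a mean gap of 11.0 percentile points (exact permutation p = 0.0286, two-sided, n = 4 each, the smallest possible).

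**Figure D1:**
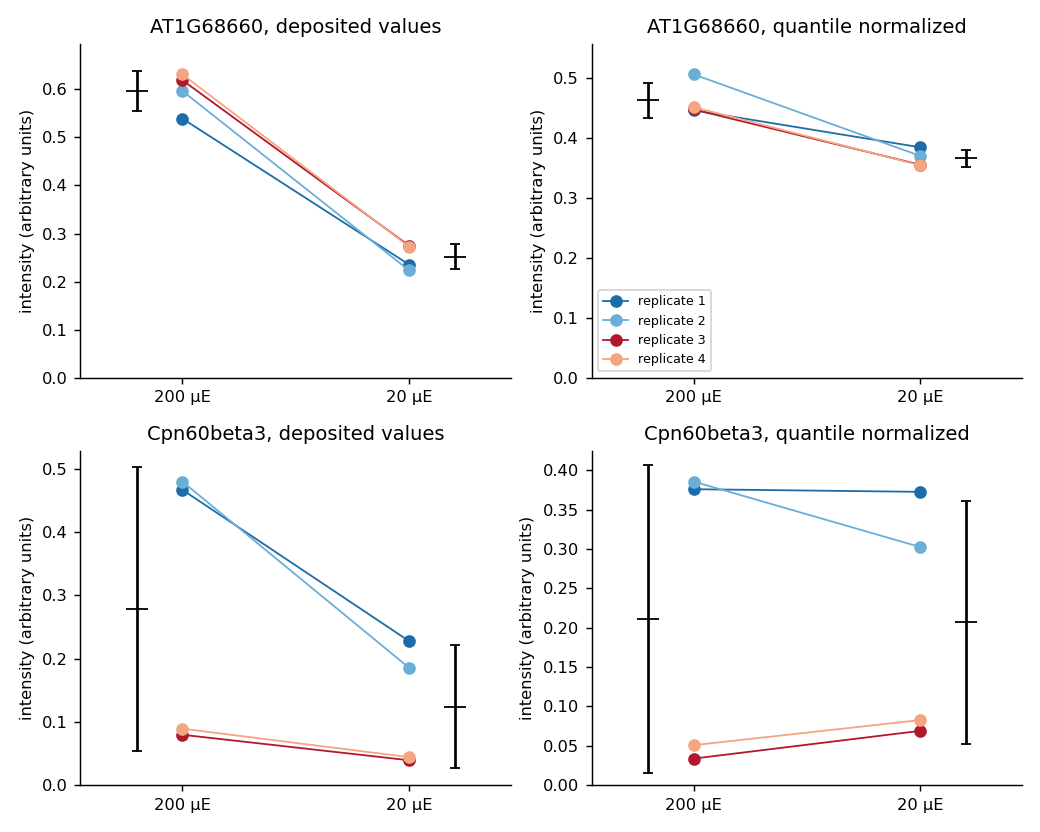
Intensities (arbitrary units, axes from 0) of AT1G68660 and Cpn60beta3 on each array at 200 µE and 20 µE, as deposited (left) and after quantile normalization (right). Lines join arrays of one replicate number, and bars beside the points show the mean ± SD of 4 arrays. AT1G68660 is higher at 200 µE in all 4 pairs on both scales, while Cpn60beta3 splits by replicate number, with replicates 3 and 4 far below replicates 1 and 2.

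Cpn60beta3, the chaperonin beta subunit gene, separated the array sets far more than the light levels. Its deposited intensities were 0.467 and 0.480 on the 200 µE arrays of replicates 1 and 2 and 0.0794 and 0.0890 on those of replicates 3 and 4, against 0.227, 0.185, 0.0390 and 0.0439 on the 20 µE arrays of replicates 1 to 4. The light groups overlapped, since both arrays of replicates 3 and 4 at 200 µE lay below both arrays of replicates 1 and 2 at 20 µE. By same replicate number the gene was higher at 200 µE in all 4 pairs, with ratios of 2.05, 2.59, 2.03 and 2.03. The mean log2 difference of the deposited values was 1.11 ± 0.91 (SE; limma, adjusted p = 0.34) when the pairs were ignored. With the replicate block, a setting added after the data were seen, it was 1.11 ± 0.10 (SE; limma, adjusted p = 0.00482), where 59.9% of all probes were called higher. The median in its class of brightness, the dimmest of the 4, was 1.02. Of that class 54.5% had a difference no larger, so the deposited difference of Cpn60beta3 lay in the middle of its class.

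After quantile normalization the direction for Cpn60beta3 depended on the pair. The levels were 0.376, 0.386, 0.0335 and 0.0505 on the 200 µE arrays of replicates 1 to 4, against 0.373, 0.302, 0.0688 and 0.0824 on the 20 µE arrays. The log2 differences by same replicate number were 0.013 and 0.35 in replicates 1 and 2 and −1.04 and −0.71 in replicates 3 and 4. Their mean of −0.35 ± 1.03 (SE; limma, adjusted p = 0.897) had a 95% interval from 0.146-fold to 4.23-fold, a width that includes the gap between the array sets. With the replicate block, which removes that gap, the log2 interval was narrower and ran from −1.13 to 0.44 (limma, adjusted p = 0.41). The dimmest class of brightness, to which the gene belongs, had a median normalized log2 difference of −0.22. In the other classes the median lay between −0.020 and 0.019.

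The negative differences in replicates 3 and 4 stood beside nearly equal ranks at the 2 light levels. Cpn60beta3 stood at percentiles 40.7, 41.9, 2.15 and 2.92 on the 200 µE arrays of replicates 1 to 4, against 39.8, 31.3, 2.19 and 3.27 on the 20 µE arrays. In replicates 3 and 4 it was thus among the dimmest probes at both light levels. No detection call was used here, so how far such dim signals lie above background is not known. With quantile normalization restricted to the 2600 probes above 0 on all arrays, an alternative chosen after these values were seen, the differences were 0.030, 0.39, −0.017 and −0.090, with a mean of 0.078 (limma, adjusted p = 0.977). With median centring they were 0.086, 0.42, 0.29 and 0.28, and with cyclic loess −0.036, 0.30, 0.0078 and 0.066. Of the scalings given here, quantile normalization over all probes was the one with 2 large negative values.

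**Figure D2:**
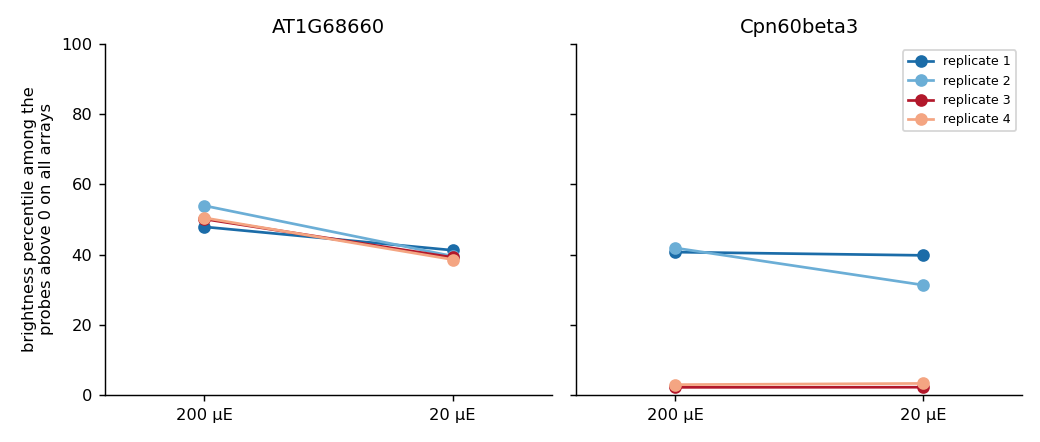
Brightness percentile of AT1G68660 and Cpn60beta3 among the 2600 probes above 0 on all arrays, at 200 µE and 20 µE, with lines joining arrays of one replicate number. AT1G68660 has a higher percentile at 200 µE in every pair, and Cpn60beta3 lies between 31.3 and 41.9 in replicates 1 and 2 but between 2.15 and 3.27 in replicates 3 and 4.

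The gap between array sets was large for Cpn60beta3, and for AT1G68660 it was that of the median probe. Averaged over both light levels on the log2 scale, the deposited signal of Cpn60beta3 was 5.29-fold higher in replicates 1 and 2 than in replicates 3 and 4. This put it among the 15 probes, 0.577% of the 2600, that lay furthest below in replicates 3 and 4. For AT1G68660 the log2 difference of replicates 3 and 4 minus replicates 1 and 2 was 0.20, against a median of 0.19 over the 2600 probes. The sets come from the data, so these gaps are a description and were given no test.

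The light difference itself was also compared between the sets. For AT1G68660 the quantile-normalized log2 difference was 0.34 in replicates 3 and 4 and 0.33 in replicates 1 and 2. For Cpn60beta3 it was −0.87 in replicates 3 and 4 and 0.18 in replicates 1 and 2. The interaction of light and set had an adjusted p of 0.198 for Cpn60beta3 (limma, unadjusted p = 0.0259) and of 0.993 for AT1G68660, where 4.52% of all probes were called. In the deposited values Cpn60beta3 differed by 1.02 in replicates 3 and 4 and by 1.21 in replicates 1 and 2 (limma interaction, adjusted p = 0.692). Because the sets come from these same data, the interaction p-values are likewise a description and decide nothing.

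The 2 genes were set against each other only as the ratio of their signals within an array, which does not depend on the scale of the array. As deposited, the log2 ratio of AT1G68660 over Cpn60beta3 was 0.21, 0.31, 2.96 and 2.83 on the 200 µE arrays, against 0.049, 0.27, 2.82 and 2.64 on the 20 µE arrays. By same replicate number it was higher at 200 µE by 0.16, 0.045, 0.15 and 0.19, a mean of 0.14 ± 0.063 (SD of 4 pairs). All 4 pairs had the same sign, with an exact sign-flip p of 0.125, the smallest possible, and an exact permutation p of 0.571 when the pairs were ignored. After quantile normalization the pairs differed by 0.20, 0.10, 1.37 and 1.06, so the larger mean of 0.68 came from replicates 3 and 4 (exact permutation p = 0.543). With 4 pairs the sign-flip test cannot pass the threshold, and the permutation test that ignores the pairs holds the gap between the sets in its spread. Whether the 2 genes responded unequally was therefore not settled by these tests.

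**Figure D3:**
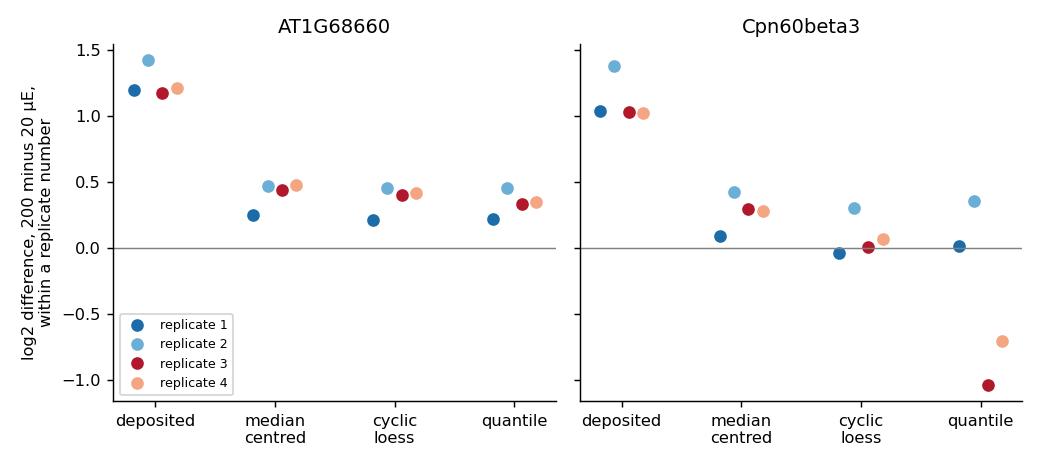
Log2 difference (200 minus 20 µE) of AT1G68660 and Cpn60beta3 within each replicate number, for deposited, median-centred, cyclic-loess and quantile-normalized values. Points of AT1G68660 lie above 0 on all 4 scales, between 0.21 and 1.42, while those of Cpn60beta3 lie above 1 as deposited and reach −1.04 in replicate 3 after quantile normalization.

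Of 61 genes listed for plastid protein quality control (Clp protease, chaperonins, other chaperones, other proteases, precursor processing and substrates of ClpS1), 7 had a single-gene probe, the 2 genes above included. A further 7 lay on probes with several genes and were not read. The core and chaperone subunits of the Clp protease, the other chaperonin subunits apart from Cpn60beta4, and the ClpS1 substrates had no single-gene probe. None of the 6 list genes above 0 on some array passed the test, 0 higher and 0 lower by limma, against 1.41% and 3.21% of all probes, and 1 of the 6 had an unadjusted p under 0.05 (AT1G68660). Their median log2 difference was 0.25, against −0.0064 over all probes tested, and it was 0.17 over the 5 list genes above 0 on all arrays. As deposited the median was 1.24 for the list and 0.91 for all probes tested, with each 0 raised to the lowest positive value of its array. Among those above 0 on all arrays it was 1.24 for the 5 list genes and 0.82 for the 2600 probes. As deposited 2 of the 6, AT1G68660 and Cpn60beta4, were called higher, among 31.4% of all probes.

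ClpF (AT2G03390), a partner of ClpS1 in substrate selection, was higher at 200 µE in every pair. Its deposited intensities were 1.497, 0.641, 2.10 and 2.17 on the 200 µE arrays, against 0.692, 0.303, 0.812 and 0.827 on the 20 µE arrays. Replicate 2 was the lowest array in both groups, and the groups overlapped. The quantile-normalized log2 differences by same number were 0.41, 0.16, 1.02 and 1.02, with a mean of 0.65 ± 0.45 (SE). The adjusted p by limma was 0.498 without the replicate block and 0.0949 with it.

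Cpn60beta4 (AT1G26230), the divergent beta subunit known for folding the NdhH subunit of the chloroplast NDH complex, shared the low signal in replicates 3 and 4. It had deposited intensities of 0.467, 0.479, 0.209 and 0.272 on the 200 µE arrays, against 0.165, 0.207, 0.0872 and 0.123 on the 20 µE arrays. The lowest 200 µE array lay just above the highest 20 µE array. The deposited log2 difference was 1.28 (limma, adjusted p = 0.0411), and after quantile normalization it was 0.17 ± 0.43 (SE; limma, adjusted p = 0.876), with pairs at 0.43, 0.16, 0.046 and 0.053. Like Cpn60beta3, it was dimmer in replicates 3 and 4, by −0.91 on the log2 scale as deposited. This was not particular to chaperonin subunits, since BSD2, described next, was dimmer there by −0.73. ClpF was brighter there, by 0.98.

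BSD2 (AT3G47650), a chaperone of Rubisco assembly, was the list gene with negative normalized differences in all 4 pairs. Its deposited intensities were 0.612, 0.583, 0.327 and 0.386 on the 200 µE arrays, against 0.447, 0.328, 0.233 and 0.238 on the 20 µE arrays, higher at 200 µE in every pair. After quantile normalization the log2 difference was −0.28 ± 0.39 (SE), with pairs at −0.47, −0.10, −0.37 and −0.18. Its adjusted p by limma was 0.749, and with the block 0.118. SppA (AT1G73990), a thylakoid protease, was listed at 0 on 7 of 8 arrays and at 0.00588 on the 200 µE array of replicate 1. TIG1 (AT5G55220), a homologue of the ribosome-bound trigger factor, was listed at 0 on all 8 arrays.

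**Figure D4:**
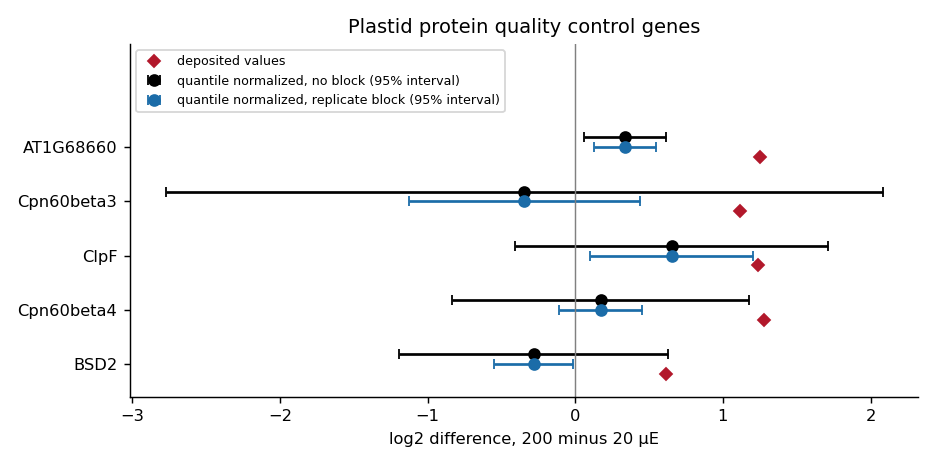
Log2 difference (200 minus 20 µE) of the 5 list genes above 0 on all arrays: quantile normalized without and with the replicate block (circles, bars show 95% intervals) and as deposited (diamonds). As deposited all 5 lie above 0, from 0.62 to 1.28; after normalization, and before adjustment over all probes, the interval of AT1G68660 excludes 0 without the block, and those of AT1G68660, ClpF and BSD2 (below 0) exclude it with the block.

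The genes most like AT1G68660 over the 8 arrays, by Pearson's r of quantile-normalized log2 values among 536 other single-gene probes, were AT4G19900 (r = 0.95), AT3G54930 (r = 0.92) and AT3G43610 (r = 0.91). Their normalized log2 differences between 200 µE and 20 µE were 0.46, 0.55 and 1.15. Since the genes were picked by likeness to a profile in which the light levels do not overlap, these differences restate the choice and are given without a test. For AT4G19900 the direction depended on the scaling, with a difference of 0.097 in the deposited values and −0.75 with median centring, negative there in all 4 pairs. In the deposited values r with AT1G68660 was 0.51 for AT4G19900, whose probe lay at percentile 98.3 of brightness, and 0.99 and 0.93 for the others. An r above 0.9 with AT1G68660 was found for 4 of the 536.

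The genes most like Cpn60beta3 were AT5G49120 (r = 0.99), AT1G15410 (r = 0.99) and AT4G22650 (r = 0.98), and 57 of the 536 had r above 0.9. The named genes share the low signal in replicates 3 and 4, by −1.19, −1.23 and −2.20 on the normalized log2 scale, against −2.68 for Cpn60beta3. Once each set's mean was subtracted, r was 0.94, 0.79 and 0.82, so they also followed Cpn60beta3 within the sets. Their log2 differences between the light levels were −0.18, −0.047 and −0.46, given likewise without a test.

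Of 5 green leaf markers, 3 had a single-gene probe. LHB1B2, a light-harvesting protein of photosystem II, had deposited intensities of 4.99 to 6.87 at 200 µE, against 10.5 to 24.8 at 20 µE. The photosystem I subunit gene PSAN had 2.28 to 2.42 against 1.79 to 2.64, and PSBY of photosystem II had 1.74 to 3.10 against 1.07 to 1.87. All 3 were above 0 on every array, and their part in the values of AT1G68660 and Cpn60beta3 was not tested. Of 3 senescence and 2 root hair markers, 0 had a single-gene probe.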

How the data were processed

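The deposited table holds intensities for 3439 probes on 8 arrays. The sources used here do not state the steps by which the authors obtained these intensities. The values are linear, never negative and at 0 on 476 to 604 probes per array. Each 0 was raised to the lowest positive value of its array before quantile normalization and log2 transformation. The 320 probes at 0 on all arrays were left out of the fit but not of the normalization. Light levels (200 minus 20 µE) were tested two-sided with limma (version 3.58.1, under R version 4.3.3) using lmFit and eBayes without covariates. P-values were adjusted by Benjamini-Hochberg over 3119 probes, with a threshold of 0.05, and the code was tested on simulated data. Exact tests used all assignments of the arrays or all signs of the 4 same-number differences.

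Groups and replicate numbers came from the labels. The labels do not say what a number shares, so the fit without the block was kept as the main one and the block as an alternative. Deviations from the group means correlated at 0.707 to 0.735 in the 4 same-numbered pairs, 0.444 to 0.462 in other pairs of the same set and −0.623 to −0.556 across sets, which by the rule applied makes the numbers a pairing, on evidence from the data alone. Genes came from the platform annotation (692 single-gene probes, 870 with several, 1877 unlisted; 690 of the 692 matched the gene table of the TAIR10.1 assembly, used for names only; 1 of the 61 list genes had no entry in it). No coordinates are given, since the values name no build. Named were both genes, every list gene with a single-gene probe, and the 3 single-gene probes most correlated with each gene. The genes and lists were chosen with earlier results of these data known. No 2 arrays held identical values. The number of arrays limits the precision. Alternatives were other scalings, a pseudocount of 0.1, filters, blocks, sets and leaving out arrays.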

Additional observations from a re-analysis of the deposited data

Results flagged for a closer look

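In 29 groups of 4 arrays examined for the named genes, 4 held an array far from the other 3. For independent, normally distributed values about 1 in 20 would do so. Each group joins arrays of 2 differing sets, and some genes were picked by likeness, so that rate may not hold here. AT1G68660 stood at −0.98 on the normalized log2 scale on the 200 µE array of replicate 2, against a mean of −1.155 on the other 200 µE arrays, a gap of 0.905 of the range. Without that array its log2 difference between the light levels was 0.30 (limma, adjusted p = 0.287). ClpF was low on the 20 µE array of replicate 2, with a gap of 0.84 of the range. LHB1B2 was low on the 200 µE array of replicate 1, at 2.40 against a mean of 2.87 on the others, with a gap of 0.914 of the range. SppA was above 0 on the 200 µE array of replicate 1 alone, so its gap of 1 is the whole range.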

How the results depend on the processing

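The log2 difference of AT1G68660 was above 0 in all 24 alternatives, from 0.27 to 1.25, and passed the threshold in 7 of them, while missing it in the other settings and as reported (0.34). It passed at 1.25 without normalization, with or without the replicate block, and, with an unchanged 0.34, with all probes in the fit, with the block of array sets, in replicates 3 and 4 only, and, among settings added after seeing the data, with the replicate block over all probes or over those above 0 on all arrays. The replicate block as planned left it at an adjusted p of 0.0538. Cpn60beta3 passed in 1 alternative, the deposited values with the replicate block (1.11; limma, adjusted p = 0.00482), a setting added after seeing the data, and its −0.35 changed sign to 1.11 without normalization, 0.27 with median centring, 0.084 with cyclic loess, 0.078 with quantile normalization over probes above 0 on all arrays, and 0.18 in replicates 1 and 2 only. Leaving out single arrays gave 0.30 to 0.36 for AT1G68660, with an adjusted p of 0.182 to 0.287, and −0.92 to 0.28 for Cpn60beta3, which turned positive without the 200 µE array of replicate 3 (0.28) or 4 (0.052) or the 20 µE array of replicate 1 (0.079). The within-array ratio was above 0 in all 24 alternatives, from 0.069 to 1.24; its tests could not pass with the pairs kept (with the replicate block 0.68, exact sign-flip p of 0.125, the smallest possible) or within a set, and otherwise ignored the pairs, so they say nothing of its stability.

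Of all probes 144 passed, 44 higher and 100 lower at 200 µE. This became 1031 without normalization (979 higher, 52 lower) and 1956 with the replicate block there (1867 higher, 89 lower), 234 with median centring, 235 with all probes in the fit, 584 with the replicate block, 722 with the block of sets, 281 and 611 in replicates 1 and 2 or 3 and 4 only, 619 and 931 with the replicate block over all probes or over those above 0 on all arrays, and 67 to 119 without single arrays. In the list, 0 genes passed as reported, where 4.62% of all probes did. Without normalization 2 passed (AT1G68660, Cpn60beta4), where 31.4% of all probes were called higher. With the replicate block there 6 passed (SppA among them through its assigned floor), where 59.9% were called higher. AT1G68660 alone passed with all probes in the fit (6.83% of probes called) and with the block of sets (23.1%). It alone also passed with the replicate block over all probes (619 of 3439 called). AT1G68660 and ClpF passed in replicates 3 and 4 only, where 611 of 3119 probes were called. Both also passed with the replicate block over probes above 0 on all arrays (931 of 2600 called). Leaving out single arrays gave 0 to 0 list genes. Why the calls moved between settings was not tested.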
